A study of Mus musculus with 9 samples.

Results

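The mRNAs of 9 factors of nonsense-mediated mRNA decay (NMD), Upf1, Upf2, Upf3a, Upf3b, Smg1, Smg5, Smg6, Smg8 and Smg9, were followed through a p-UPF1 RIP-seq experiment in N2A cells, an established mouse neuroblastoma line. The members were taken by gene symbol from the deposited table, as 9 of 54325 genes and 45 of 140658 transcripts. Okadaic acid, which blocks protein phosphatases, was given to the cells of every library (200 nM, 2 h), so that no untreated cells serve as a reference for the drug. The 3 groups of 3 libraries were input RNA taken without an IP, RNA recovered with rabbit IgG (rIgG), and RNA recovered with an antibody to phosphorylated UPF1 (p-UPF1), all read as short fragments after RNase I cleavage. No source used here says whether libraries of a group came from separate cultures, so p-values measure the spread between these libraries, which may be technical.

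NMD is a translation-dependent pathway that degrades mRNAs on which ribosomes stop too early, and it also lowers many normal mRNAs. The ATP-dependent RNA helicase UPF1 is recruited to such mRNAs, UPF2 links it to UPF3B and so to the exon-junction complex, and UPF3A is a paralog of UPF3B. The kinase SMG1 phosphorylates UPF1 and is held in check by its partners SMG8 and SMG9. Phosphorylated UPF1 then recruits SMG6, an endonuclease, and SMG5, which helps to bring in the enzymes that shorten and decap the mRNA. Several NMD factor mRNAs are themselves known NMD targets in mammalian cells.

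Library totals were 25184464 to 29857955 counts for input, 5312526 to 6246110 for the p-UPF1 IP and only 79010 to 474491 for the rIgG IP. A floor set at 3 counts was thus at most 0.119 CPM (counts per 1000000 counts of the library) in input and 0.565 CPM in the p-UPF1 IP. In the rIgG IP it was 6.32 to 38.0 CPM. These floors cover counting error only, since PCR copies are not independent molecules. Most counts fell on few features. The 10 most counted transcripts of a library held 81.44 to 82.33% of its counts in input and 76.8 to 78.91% in the p-UPF1 IP. In the rIgG IP they held 78.22 to 80.85%. All 11 neuronal and sympathetic-lineage markers examined had over 3 counts in every input library, and of 7 markers of glia, immune cells and fibroblasts only Dcn did (21, 18 and 24 counts).

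Fragments of the 9 mRNAs made up a larger share of the p-UPF1 IP than of input. Together they held 2507 to 2805 counts in the input libraries, or 93.9 to 99.6 CPM of the library total, and 1392 to 1762 counts in the p-UPF1 IP libraries, or 262 to 292 CPM. The rIgG IP libraries held 27, 14 and 6 counts of all 9 mRNAs, or 56.9 to 75.9 CPM. The members' mRNAs did not behave as 1 group: by edgeR's quasi-likelihood test on gene-level sums of transcript counts, 6 of 9 were higher in the p-UPF1 IP than in input (Upf1, Upf2, Smg1, Smg5, Smg6 and Smg9) and 2 were lower (Smg8 and Upf3a), at a Benjamini-Hochberg adjusted p under 0.05. Of all 16919 genes tested, 26.3% were higher and 35.7% were lower. The median log2 fold change was 0.95 over the members and -0.42 over all genes.

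**Figure D1:**
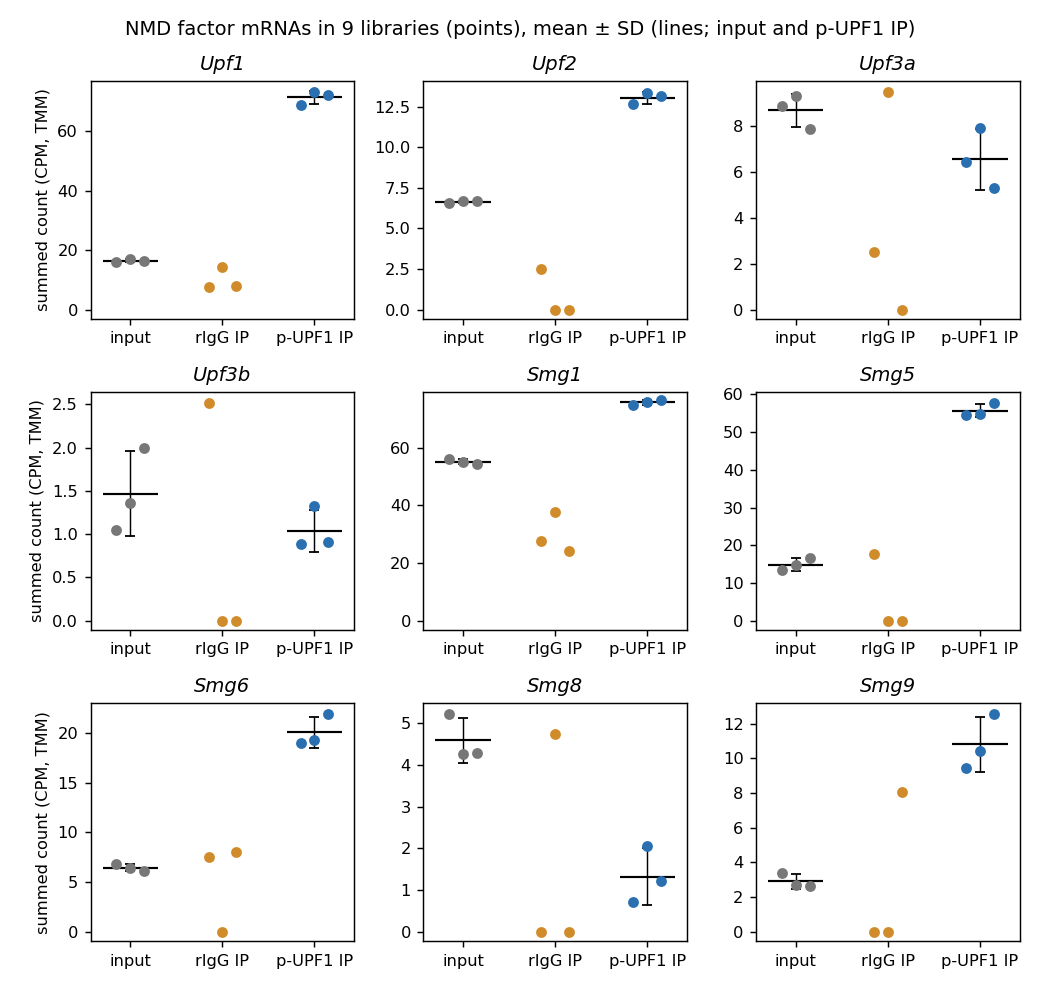
Summed counts of each NMD factor mRNA in every library, in CPM scaled by TMM (vertical axis, from 0), for input, rIgG IP and p-UPF1 IP (points are libraries, lines give mean ± SD of input and p-UPF1 IP). For Upf1, Smg5, Smg6 and Smg9 the 3 p-UPF1 IP libraries stand far above the input libraries, for Smg8 they stand below, and most rIgG IP points rest on 3 counts or fewer.

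The mRNA of UPF1 itself had the largest log2 fold change among the members. Upf1 (chr8:70331525-70353278, minus strand, GRCm38) had 353, 364 and 394 counts in input, 388, 499 and 479 in the shallower p-UPF1 IP libraries, and 3, 3 and 1 in the rIgG IP. Scaled by TMM, these were 16.5 ± 0.53 CPM in input and 71.5 ± 2.2 CPM in the p-UPF1 IP (SD, n = 3 libraries each), with no overlap between the groups. The log2 fold change was 2.09 (SE 0.07, 4.26-fold, edgeR adjusted p = 3.87e-09) and lay at percentile 93.8 of all genes tested.

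Upf2 moved the same way by less. Its mRNA had 6.58, 6.66 and 6.67 CPM in input and 12.6, 13.3 and 13.1 CPM in the p-UPF1 IP, a log2 fold change of 0.95 (SE 0.09, edgeR adjusted p = 9.03e-06). The spread within each group was far smaller than this difference. A single count of Upf2 was seen over the 3 rIgG IP libraries.

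The paralogs Upf3a and Upf3b were not recovered above input. Upf3a had 8.85, 9.29 and 7.88 CPM in input and 6.41, 7.92 and 5.29 CPM in the p-UPF1 IP, so the groups overlapped. Its log2 fold change of -0.43 (SE 0.15, edgeR adjusted p = 0.0302) was close to the median of all genes and became -0.02 (adjusted p = 0.925) when libraries were scaled by their totals. The call was also lost without p-UPF1 IP replicate 3 (adjusted p = 0.170) or 1 (0.0932), and without input replicate 1 (0.0793) or 2 (0.0813). Upf3b, the rarer mRNA of the pair with 5, 9 and 6 counts in the p-UPF1 IP and 23, 29 and 48 in input, did not pass the test (log2 fold change -0.52, SE 0.38, edgeR adjusted p = 0.253).

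Among the mRNAs of the SMG1 kinase complex, the kinase and SMG9 were higher and SMG8 was lower. Smg1, the most counted member with 1176 to 1304 counts in input, rose from 55.2 ± 0.93 to 75.9 ± 0.84 CPM (SD, n = 3 each), a small log2 difference of 0.43 (SE 0.06, edgeR adjusted p = 0.00015) with no overlap. Smg9 had 3.40, 2.67 and 2.63 CPM in input and 9.43, 10.4 and 12.5 CPM in the p-UPF1 IP (log2 fold change 1.87, SE 0.16, edgeR adjusted p = 3.15e-06). Smg8 went the other way, with 115, 91 and 103 counts in input but 4, 14 and 8 in the p-UPF1 IP. On the CPM scale its level was 4.59 ± 0.54 against 1.32 ± 0.68 (SD, n = 3 each), and it fell by 1.78 on the log2 scale (SE 0.28, edgeR adjusted p = 0.000294). The 2 inhibitory partners of the kinase thus lay at percentiles 91.9 (Smg9) and 23.6 (Smg8) of all genes.

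The mRNAs of the factors that act on phosphorylated UPF1 were all recovered well above input. Smg5 had 13.4, 14.7 and 16.6 CPM in input and 54.6, 54.7 and 57.7 CPM in the p-UPF1 IP (log2 fold change 1.87, SE 0.09, edgeR adjusted p = 5.12e-08). Smg6 had 6.81, 6.42 and 6.08 CPM in input and 19.0, 19.4 and 21.9 CPM in the p-UPF1 IP (log2 fold change 1.62, SE 0.09, adjusted p = 1.82e-07). Neither mRNA overlapped between the groups, and each log2 fold change stayed above 1.5 when any library was left out.

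With Smg5, Smg6, Smg9 and Upf1, 4 members had a log2 fold change above 1 and passed the test, against 17.3% of all genes, and Smg8 was the 1 member below -1, against 26.5%. Scaling by library totals in place of TMM shifted the all-gene median from -0.42 to -0.01 and turned the calls over all genes from 4451 higher and 6040 lower into 5709 higher and 4364 lower. Under that scaling the same 6 members were higher, with a median over the members of 1.36, and only Smg8 was lower (log2 fold change -1.37).

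Over the rIgG IP, the control for RNA that sticks to beads or antibody, the same 6 mRNAs were higher and none was lower. The background there was 17.9% higher and 5.59% lower of 12033 genes, with a median log2 fold change of 0.89 over all genes (0.25 with DESeq2) and 2.10 over the members (1.84 with DESeq2). The comparison rests on very few control counts. Upf1 had 7 counts in the 3 rIgG IP libraries and Smg1 had 22, against 1366 and 1447 in the p-UPF1 IP, and their log2 fold changes were 3.13 (SE 0.38, edgeR adjusted p = 9.61e-07) and 1.56 (SE 0.28, adjusted p = 0.000176). Smg5, with all of its 7 control counts in rIgG IP replicate 1, was higher by 2.78 (SE 0.46, adjusted p = 6.07e-05). Upf2 was higher by 3.45 (SE 0.86, adjusted p = 0.00464), Smg9 by 3.17 (SE 0.97, adjusted p = 0.0189) and Smg6 by 2.10 (SE 0.57, adjusted p = 0.00886), each with at most 3 counts in any control library. Without rIgG IP replicate 1, Smg5 and Upf2 had no control count left, and without replicate 3 Smg9 had none, so that their fitted log2 fold changes there (10.76, 8.67 and 8.42) measure no size. Left-out libraries gave values as low as 2.20 for Smg5, 2.88 for Upf2 and 2.07 for Smg9. The Smg6 call was lost with DESeq2 (adjusted p = 0.0545) and without rIgG IP replicate 2 (0.0757). The Smg9 call was lost with DESeq2 (0.0713) and without rIgG IP replicate 1 (0.230) or 2 (0.0928). Differences of Upf3a (0.90, SE 0.78, adjusted p = 0.427), Smg8 (0.19, adjusted p = 0.938) and Upf3b (-0.13, adjusted p = 0.957) did not pass. This comparison shares its p-UPF1 IP libraries with the one over input, so the pair of results is not independent.

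Between the rIgG IP and input no member passed edgeR's test or DESeq2, where 0.584% and 0.313% of 16280 genes were higher and lower by edgeR. The smallest adjusted p-values among the members were those of Smg1 (log2 fold change -0.87, edgeR adjusted p = 0.194) and Upf2 (-2.27, edgeR adjusted p = 0.356). The median of all genes was -0.84 in this comparison, 0.25 with DESeq2 and -4.09 without rIgG IP replicate 1, where that of the members was -0.87, -0.52 and -0.75.

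**Figure D2:**
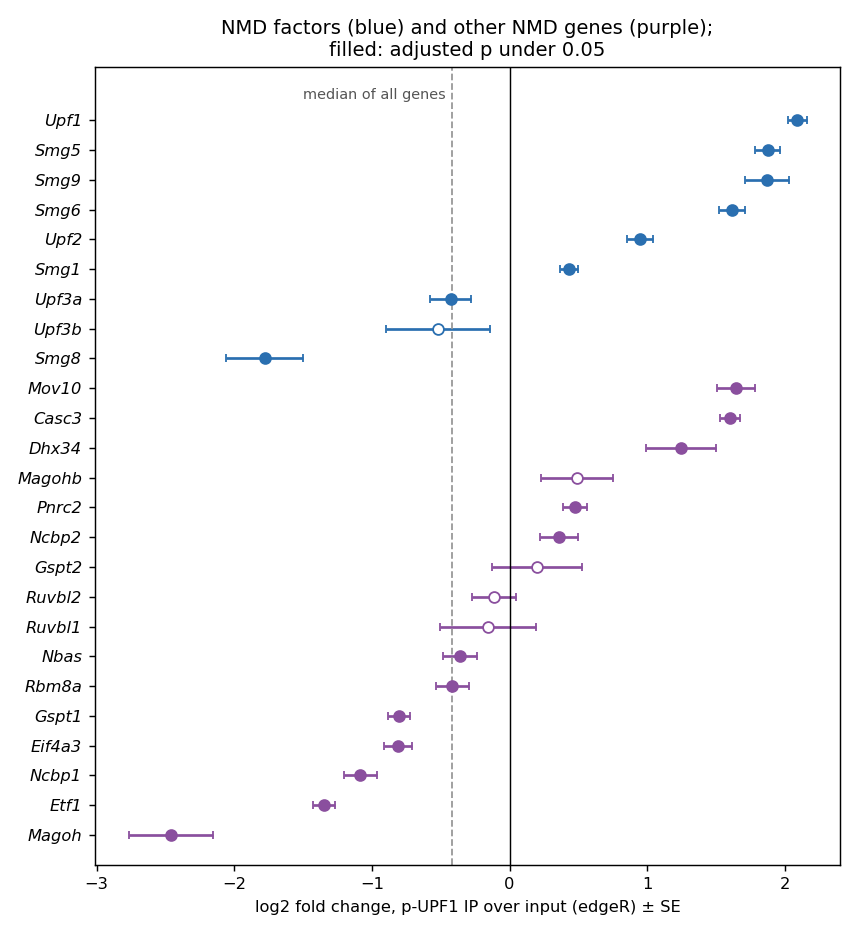
Log2 fold change of the p-UPF1 IP over input by edgeR, with its standard error, for the 9 NMD factors (blue) and 16 other genes of the pathway (purple), where filled points passed an adjusted p under 0.05 and the dashed line is the median of all genes (-0.42). Upf1 lies farthest to the right, Magoh and Smg8 farthest to the left.

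A list of 16 other genes that act in NMD or at its edges held 5 that were higher in the p-UPF1 IP than in input, 7 that were lower and 4 not past the test, beside 26.3% higher and 35.7% lower of all genes. The mRNAs that were higher encode the helicase MOV10 (log2 fold change 1.65), the exon-junction factor CASC3 (1.60), the helicase DHX34 (1.25), the decapping adaptor PNRC2 (0.48) and the cap-binding subunit NCBP2 (0.36). Those that were lower encode the exon-junction core proteins MAGOH (-2.46), EIF4A3 (-0.81) and RBM8A (-0.42), the release factors Etf1 (-1.35) and Gspt1 (-0.80), the cap-binding subunit NCBP1 (-1.09) and NBAS (-0.36). The call of Ncbp2 was lost in 8 of 13 alternatives, with an edgeR adjusted p of 0.175 without a filter on low counts, and of 0.108 and 0.0580 without input replicates 1 and 2 and 0.0676 and 0.118 without p-UPF1 IP replicates 1 and 2. That of Nbas was lost in 5, with log2 fold changes of 0.05 with library totals and -0.19 without p-UPF1 IP replicate 1, and also without input replicate 2 (edgeR adjusted p = 0.0640) or 3 (0.0594). That of Rbm8a was lost in 3, with library totals (-0.01) and without p-UPF1 IP replicate 1 (edgeR adjusted p = 0.0548) or 2 (0.0938). With library totals Magohb (0.90) gained a call.

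Levels per length gave a different order in input and in the p-UPF1 IP. In input, Smg5 stood highest with 7.01 ± 1.48 CPM per kb of transcript (SD, n = 3), ahead of Smg1 (4.95), Upf3a (4.21) and Upf1 (3.65), and these 4 neighbours did not overlap. Smg8, Smg9, Smg6 and Upf2 followed at 1.57 to 1.30 CPM per kb with ranges that overlapped from each to the next, and Upf3b was lowest (0.62 ± 0.21). In the p-UPF1 IP, Smg5 remained first (26.3 ± 0.76 CPM per kb), Upf1 moved to second place (15.7 ± 0.45), and Smg1 (8.13), Smg9 (6.00) and Smg6 (4.56) came next without overlap. Upf3a (3.16 ± 0.61) overlapped Upf2 (2.52 ± 0.07), and Upf3b (0.595 ± 0.23) overlapped Smg8 (0.522 ± 0.26) at the bottom. The rank of Smg5 depends on counts assigned to short transcripts with few windows of their own, such as Smg5-202 (1010 nt, 6.56%) and Smg5-207 (833 nt, 3.88%). Not divided by length, Smg5 lay below Upf1 in input (14.9 against 16.5 CPM) and in the p-UPF1 IP (55.7 against 71.5 CPM). The main mRNAs of Smg5 and Upf1 are 4448 and 4518 nt long.

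The transcripts behind these sums differ in reading frame and splicing, and a short fragment often falls in sequence that several of them share. Of the 45 member transcripts, 41 had a count in some library and 25 had enough counts to be tested between the p-UPF1 IP and input. Of these, 5 were enriched (log2 fold change above 1 and adjusted p under 0.05), namely Upf1-201, Upf1-202, Smg5-201, Smg6-202 and Smg9-201, and 1 was depleted, Smg8-201. Over all 42616 transcripts tested, 8.55% were enriched and 16.2% depleted. Transcript counts varied far more between replicate libraries than summed counts did, with a biological coefficient of variation of 96.7% against 12.4%.

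Both protein-coding transcripts of Upf1 were enriched, and they differ by an alternative splice site that adds 33 nt, or 11 codons, to exon 7 of Upf1-201 (chr8:70339982-70340014, minus strand, GRCm38). The longer form is known to carry an extended regulatory loop in the helicase core of UPF1. The lines below show the messenger-sense sequence where the forms part, from GENCODE transcripts, with bases found only in Upf1-201 in capitals.
Upf1-201, start of the insert: ccaagactgactctgGTAATGAGGATTTAG
Upf1-201, end of the insert: TAATTTGGTTAAGAGacatgcggctcatgc
Upf1-202, same place without the insert: ccaagactgactctgacatgcggctcatgc
Besides the insert, Upf1-201 has 67 nt more at the 5′ end and no other difference, so only 2.90% of its 35-nt windows and 0.736% of those of Upf1-202 belong to that transcript alone.

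Upf1-201, the form with the insert, was assigned 28, 21 and 20 input counts, 101, 256 and 106 p-UPF1 IP counts and 0 in each rIgG IP library. Its log2 fold change over input was 4.20 (SE 0.44, edgeR adjusted p = 0.0019). Upf1-202 had 325, 343 and 374 input counts against 287, 243 and 373 in the p-UPF1 IP, and a log2 fold change of 1.29 (SE 0.18, adjusted p = 0.00518). Both calls held in all 13 alternative settings. Upf1-201 made up 7.93%, 5.77% and 5.08% of the Upf1 counts in input, against 26.0%, 51.3% and 22.1% in the p-UPF1 IP. The shares did not overlap, yet p-UPF1 IP replicate 2 stood well above the other two. The exact two-sided permutation test gave p = 0.1, the smallest that 3 against 3 libraries allow. With so few windows of their own, more of the Upf1-201 form and a different spread of fragments along sequence that both forms share cannot be told apart from these counts.

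The annotation lists 3 member transcripts as NMD substrates, Smg6-202, Smg1-204 and Smg5-202, whose reading frames end well ahead of the last splice junction. It marks all 3 as incomplete, with coding parts that start at the first annotated base, so their true starts are not known. Each is cited below by the sequence around its stop codon in capitals, followed for Smg6 and Smg1 by the stop of the full-length protein-coding transcript, all in messenger sense from GENCODE transcripts. 
Smg6-202: ccctgcagtggcTGAgaaggtccttaa
Smg6-201: gcccaggtgggcTGAggggaccacact
Smg1-204: gactggctactgTAAagcagctgaagg
Smg1-201: acagcttgggtgTGAatggcaagacag
Smg5-202: tgctacttgcgcTGAtgcagtagctta
The stop codon of Smg6-202 (chr11:74990094-74990096) is followed by 9 splice junctions, that of Smg1-204 (chr7:118210780-118210782) by 59 and that of Smg5-202, which an intron splits, by 3. The stop codons of Smg6-201, Smg1-201 and Smg5-201 lie in the last exon and are followed by none. Upf1-201 and Upf1-202, annotated as protein-coding, each have 1 junction after the stop codon, 3 nt past it. The last junction lies 434 nt past the stop codon in Smg5-202, 1379 nt in Smg6-202 and about 1.04e+04 nt in Smg1-204.

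**Figure D3:**
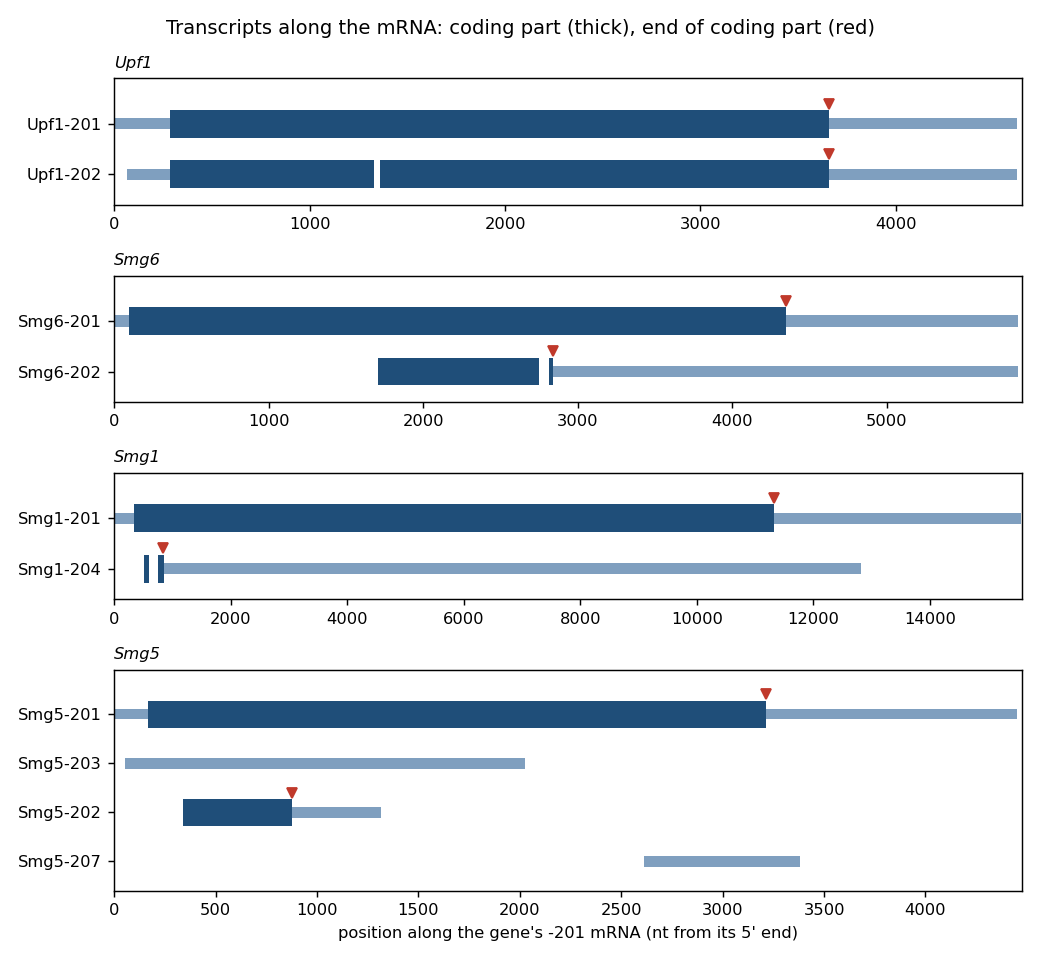
Named transcripts of Upf1, Smg6, Smg1 and Smg5 drawn along the spliced transcript 201 of their gene (horizontal axis, nt from its 5′ end), with the annotated coding part thick, the rest thin and its end marked in red; sequence that transcript 201 lacks is not drawn. Smg6-202 covers positions 1709 to 5848 of Smg6-201 and ends its reading frame early, and Smg5-207 covers 2610 to 3380 of Smg5-201 with no coding part annotated.

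The 3 NMD-type transcripts did not move together. Smg6-202 had 28, 64 and 65 input counts against 79, 97 and 113 in the p-UPF1 IP, a log2 fold change of 2.37 (SE 0.35, edgeR adjusted p = 0.00631) that was called in all 13 alternatives. The full-length Smg6-201 had 121, 72 and 80 counts in input against 28, 35 and 32, and its log2 fold change of -0.04 did not pass (adjusted p = 0.934). The share of Smg6-202 in the Smg6 counts was 18.7%, 46.7% and 44.5% in input, against 73.8%, 73.5% and 77.9% in the p-UPF1 IP, without overlap (exact two-sided permutation p = 0.1, the smallest possible). Only 0.841% of the 35-nt windows of Smg6-202 are its own, whereas 31.0% of those of Smg6-201 are. As annotated, Smg6-202 begins at position 1709 of the 5848 nt of Smg6-201. From these counts, more of the Smg6-202 form and more fragments from the part of Smg6-201 that both share cannot be told apart.

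Smg1-204 was the most counted Smg1 transcript in input, with 770, 719 and 809 counts, and had 183, 174 and 260 in the p-UPF1 IP (log2 fold change -0.40, edgeR adjusted p = 0.123). Its share of the Smg1 counts was 61.8% ± 0.57 in input and 42.8% ± 8.90 in the p-UPF1 IP (SD, n = 3 each). The protein-coding Smg1-201, the most counted in the p-UPF1 IP libraries together though not in replicate 3, had 437, 428 and 450 counts in input and 192, 321 and 203 there (log2 fold change 0.61, adjusted p = 0.059). Neither transcript passed the test alone, although their gene did, and Smg1-204 has 0.256% windows of its own. Smg5-202 had 56, 47 and 77 input counts against 17, 0 and 0 in the p-UPF1 IP, with a difference that did not pass (log2 fold change -1.73, adjusted p = 0.449). Over all 9 members, NMD-type transcripts took 33.3% ± 0.50 of the counts in input and 19.0% ± 3.21 in the p-UPF1 IP (SD, n = 3 each), with Smg1-204 the largest part of both. All 12147 nt of Smg1-204 lie within Smg1-201. For its share and this sum, less of the Smg1-204 form and a different spread of fragments along shared sequence cannot be told apart. The share of Smg6-202 in the Smg6 counts went the other way.

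**Figure D4:**
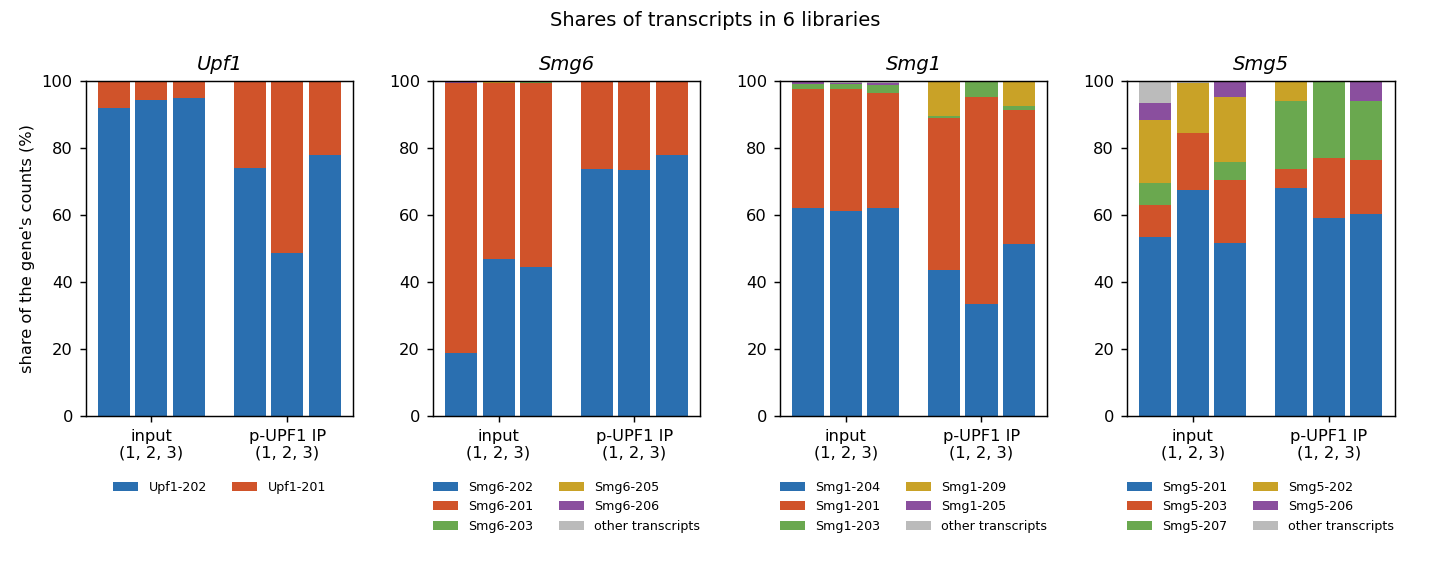
Share of each gene's counts (vertical axis, percent) assigned to its 5 most counted transcripts and to the rest, in the 3 input and 3 p-UPF1 IP libraries, for Upf1, Smg6, Smg1 and Smg5. Upf1-201 and Smg6-202 take a larger share in every p-UPF1 IP library than in any input library, and Smg1-204 takes a smaller one.

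The remaining calls fell on full-length protein-coding transcripts. Smg5-201 had 158, 211 and 205 input counts against 209, 220 and 230 in the p-UPF1 IP (log2 fold change 1.70, SE 0.15, edgeR adjusted p = 0.00119). It missed the threshold only in the fit of all 9 libraries (adjusted p = 0.0658). Smg9-201 had 58, 56 and 56 counts against 36, 59 and 71 (log2 fold change 1.43, SE 0.25, adjusted p = 0.0102). Smg8-201 had 98, 91 and 103 counts against 4, 14 and 4 (log2 fold change -2.26, SE 0.54, adjusted p = 0.0306), but stayed depleted in just 5 of 13 alternatives. The main transcripts of the other members, Upf2-201 (log2 fold change 0.66, adjusted p = 0.0129), Upf3a-201 (-0.64, 0.0633) and Upf3b-201 (-1.01, 0.273), were neither enriched nor depleted. Smg5-207, a transcript with no annotated reading frame that was singled out after its values were seen, had 19, 0 and 22 input counts against 63, 85 and 67 in the p-UPF1 IP (log2 fold change 3.89, adjusted p = 0.0627).

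Over the rIgG IP, 6 member transcripts of 19 tested were enriched, against 12.7% of all transcripts, and none was depleted, against 1.34%. They were Upf1-201, Upf1-202, Upf2-201, Smg5-201, Smg5-207 and Smg9-201. All but Upf1-202 and Smg5-201 had 0 counts in each rIgG IP library, so their fitted fold changes are no measure of size. Scaled by library totals, the mean of Upf1-201 (26.1 CPM) was 1.33-fold the mean floor of 3 counts in the rIgG IP libraries (19.6 CPM). That mean lay under the floor of rIgG IP replicate 3 (38.0 CPM). It rested most on p-UPF1 IP replicate 2, with 256 counts against 101 and 106. Upf2-201 (14.1 CPM), Smg5-207 (12.2 CPM) and Smg9-201 (9.31 CPM) lay under the mean floor. None of the 6 was called when any p-UPF1 IP library was left out. Without replicate 1, 2 or 3, only 2, 1 and 2 of all 20267, 19501 and 19535 transcripts tested were enriched. Between the rIgG IP and input, edgeR and DESeq2 called no member transcript, as edgeR did none of all 36312.

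In features that the choice of genes did not use, the members ranged widely. The GC content of the main protein-coding mRNA was 60.3% for Smg9, 58.0% for Upf1 and 56.5% for Smg5, and 44.9%, 43.5% and 42.5% for Smg1, Upf2 and Upf3b, around a median of 50.5% over 12728 genes. Across the 9 members, Spearman's rho between GC content and the log2 fold change over input was 0.70, and across the 12728 genes it was 0.41. These points share their libraries, and their number among the members is small. The 3′ UTR ran from 221 nt in Smg8, the member lowest in the p-UPF1 IP relative to input, to 4233 nt in Smg1, with 958 nt in Upf1 and 400 nt in Smg9 (median over genes 935 nt), and rho with the log2 fold change was 0.32 over the members and 0.12 over all genes. Smg8 also had the fewest exons, 4, and Smg1 the most, 63. For exon number, rho with the log2 fold change was 0.64 over the members and 0.21 over all genes. For transcript length it was 0.25 and 0.22. An ATG in the 5′ UTR was present in the main mRNAs of Upf2, Smg1, Smg5 and Smg9 and in 49.5% of all genes.

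A mean profile was taken over 7 members with at least 20 counts in every input and p-UPF1 IP library, which left out Smg8 and Upf3b through their low counts in the p-UPF1 IP. The genes whose levels followed it most closely over the 6 input and p-UPF1 IP libraries were Ddi2, Nr2f6 and Gcn1l1 (Pearson's r = 0.9999 for each, among 6854 genes with at least 20 counts in every library). Their log2 fold changes were 2.02, 1.92 and 0.77. Because the 6 libraries fall into 2 levels, input and p-UPF1 IP, r says little beyond a steady difference between the groups.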

How the data were processed

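RIP-seq libraries of N2A cells (3 each of input, rIgG IP and p-UPF1 IP) were grouped by their sample labels. The authors trimmed reads with FastP, aligned them with STAR 2.7.0f to GRCm38.p6 and quantified transcripts with Salmon 0.13.1. They deposited estimated counts per transcript, as whole numbers without scaling. From these, counts were summed by gene symbol and edgeR 4.0.16 (R 4.3.3) compared the groups in pairs with TMM factors and its quasi-likelihood test on 6 libraries, over all features with a summed count of at least 10. P-values were adjusted over all features tested (Benjamini-Hochberg). Printed CPM values were scaled by TMM over 9 libraries, while floors and the members' total share used library totals. Levels per kb divide each transcript's CPM by its length before summing. Standard errors follow from the log2 fold change and the square root of its F value. All 45 member transcripts matched GENCODE M21 (GRCm38), which gave names, types, coordinates and sequences; the authors used release M22. A 35-nt window counted as a transcript's own if no other member transcript and no GENCODE transcript of another gene held it.

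The members and the gene lists were chosen with earlier results of these data known. Named were all 9 members, for each its most counted transcript in input and in the p-UPF1 IP and every enriched or depleted one, and of the pathway list every gene past the test; the genes most like the members were the 3 with the highest Pearson r. Replicate libraries differed by more than sampling noise (chi-square per degree of freedom 4.14 to 17.6 over genes), so none was taken for a copy. As alternatives, DESeq2 1.42.0, scaling by library totals or RLE factors, filterByExpr, no filter, all 9 libraries in one fit, a replicate block and leaving out each library were run. The procedure was tested on simulated counts. A pair of genes from the lists is not reported here. Total counts per library set the precision, and intervals are not given for shares with replicates.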

Additional observations from a re-analysis of the deposited data

How the results depend on the processing

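Of the 9 members' log2 fold changes under 13 alternatives each, 111 of 117 values for the p-UPF1 IP over input kept their direction and side of the threshold, and the 6 that did not all belonged to Upf3a. The number of members lower in the p-UPF1 IP than in input was 1 with library totals and with all 9 libraries in one fit, and 1 to 2 when a library was left out. The number of enriched transcripts was 8 with DESeq2 and with library totals, and that of depleted ones was 0 with a replicate block, with all 9 libraries or with library totals, and 0 to 2 without a library. Over the rIgG IP, 3 transcripts were enriched with library totals and with a replicate block, and 0 to 6 without a library. In the rIgG IP over input, 1 transcript was depleted with filterByExpr and with all 9 libraries, and 0 to 1 without a library. Directions reversed only where a member had few rIgG IP counts. For Smg8 over the rIgG IP the log2 fold change was -0.37 with DESeq2 and -0.077 with RLE factors (-0.90 to 5.44 without a library), and for Upf3b -0.71 to 5.07 without a library. In the rIgG IP over input, Upf3b gave 0.45 by DESeq2, 0.16 by RLE factors, 0.10 by library totals and 0.036 with a replicate block (-7.33 to 0.37 without a library). There Smg6 gave 0.049 with DESeq2 and 0.047 with RLE factors (-1.10 to 0.26 without a library), and Smg9 -8.31 to 0.052 without a library. The cause of these changes was not tested. Deviations of libraries with the same number were not related (r = -0.01, 0.05 and 0.04 over genes for the p-UPF1 IP and input). These values cannot tell whether libraries with the same number came from the same cells. The replicate block left 6 members higher and 2 lower in the p-UPF1 IP than in input, and 5 higher than in the rIgG IP, where Smg9 was not called (edgeR adjusted p = 0.068). Over input, it left Smg9-201 uncalled (0.108) at a log2 fold change of 1.41. A transcript or gene needs 6.32 to 38.0 CPM to reach 3 counts in an rIgG IP library.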
